A study of Mus musculus with 33 samples.

Results

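The genes carried by mitochondrial DNA were measured in single cells of the mouse hippocampal neurogenic niche, the region around the dentate gyrus where new neurons are born. They were chosen as the rows that the count files place on chrM. These were 34 rows of the 16661 listed for 2 libraries, and of 18888 rows in the whole series. The old library comes from hippocampi of wild-type C57BL/6 mice older than 12 months, depleted of neurons. The Nestin-GFP library holds GFP-positive hippocampal cells of NestinGFP mice, also labelled wild-type C57BL/6, whose age the labels do not state. In both, live cells that bound no antibody against GluR1, a glutamate receptor subunit of neurons, or Cd24, a surface protein of neuroblasts, were sorted singly into 384-well plates. Transcripts were counted by SORT-seq, a plate-based method that primes on A tails, reads the 3' end of a transcript and carries a unique molecular identifier (UMI) and added spike-in RNA. In Nestin-GFP mice, regulatory sequence of Nes, a filament gene of neural stem and progenitor cells and of growing vessels, drives the reporter. Each group is 1 library, and the labels do not say how many mice it holds, so no test separates old from Nestin-GFP. The other 31 libraries list no row of chrM and served only to define the classes of cells.

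Mitochondrial DNA is a small circular genome, present in many copies per cell and transcribed inside the mitochondrion as long RNAs from both strands. The RNAs are cut at the transfer RNAs that lie between the genes. It encodes 13 proteins, all of them subunits of the respiratory chain or the ATP synthase, and the 2 ribosomal RNAs and 22 transfer RNAs needed to translate them. All other subunits of these complexes come from nuclear genes. Astrocytes, neuroblasts and oligodendrocytes differ in how far they rely on respiration, and the share of mitochondrial transcripts is also widely read as a mark of cell quality.

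The 34 rows matched 34 of the 37 genes that GENCODE vM21 annotates on chrM of GRCm38, the assembly also called mm10. They were all 13 protein-coding genes, both ribosomal RNA genes and 19 of 22 transfer RNA genes. The genes mt-Tf, mt-Ty and mt-Tr were not analysed here. The old library lists 33 of the rows and the Nestin-GFP library all 34. The ends of 4 messages are shown because A tails are what the method primes on, and because the tail is part of the reading frame in some of them. The capitals mark the stop codon, or what the DNA holds of it.
mt-Co1, chrM:6843-6872, plus strand: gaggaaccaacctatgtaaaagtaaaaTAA
mt-Co3, chrM:9361-9390, plus strand: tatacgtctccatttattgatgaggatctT
mt-Nd4, chrM:11515-11544, plus strand: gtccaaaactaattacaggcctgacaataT
mt-Cytb, chrM:15259-15288, plus strand: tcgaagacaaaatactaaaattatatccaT
In 10 of the 13 protein-coding genes the annotated sequence ended in a full stop codon, which was TAA in 8 and TAG in 2. In mt-Co3, mt-Nd4 and mt-Cytb it ended 1 base past the last codon, with a T. There the added A tail is known to complete the stop codon. The 2 genes annotated to end in TAG, mt-Nd1 at 3707 and mt-Nd2 at 4951, reach into the next transfer RNA gene. These are mt-Ti, from 3706, and mt-Tw, from 4950, on the same strand. Whether the cut messages of these 2 genes keep a full stop codon was not examined.

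Neighbouring genes also overlap, which bears on what a 3' count can tell apart. Capitals mark the start codon of mt-Atp6 inside mt-Atp8, and the bases that mt-Nd4l and mt-Nd4 share.
mt-Atp8 into mt-Atp6, chrM:7912-7941, plus strand: cccttgagaattaaaATGaacgaaaatcta
mt-Nd4l into mt-Nd4, chrM:10144-10173, plus strand: gtccaaaatctcaacctactacaATGCTAA
The overlap was 43 bases long for mt-Atp8 and mt-Atp6, and 7 bases long for mt-Nd4l and mt-Nd4. In mammals each pair is kept on 1 RNA, whose only A tail follows the downstream gene. The labels do not state how reads in the overlap were assigned, so the split within a pair is uncertain.

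Wells with at least 1000 transcripts outside chrM and the spike-ins were kept as cells. These were 138 of 384 wells in the old library and 315 of 384 in the Nestin-GFP library. They held 781850 transcripts in the old library and 2175610 in the Nestin-GFP library, spike-ins left out. Clusters of cells were named from listed marker genes, without chrM rows. Astrocyte-like, mature oligodendrocyte-like, neuroblast-like, endothelial-like and oligodendrocyte precursor-like cells (called precursor-like here) were found with at least 5 wells in both libraries. Among classes with at least 5 wells in 1 library, microglia-like cells and lymphoid or other blood-like cells were found in the old library alone. No cluster was named from the neural stem cell markers. The unnamed clusters held 22 old wells and 6 Nestin-GFP wells.

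Mitochondrial transcripts made up 6.26% of all transcripts in the old library and 9.65% in the Nestin-GFP library (exact 95% binomial intervals 6.20% to 6.31% and 9.61% to 9.69%). Intervals and limits of this kind cover counting error only. Over wells the share ran from 0.665% to 28.3% in the old library, with quartiles at 3.70%, 5.42% and 7.75%. In the Nestin-GFP library it ran from 1.66% to 44.8%, with quartiles at 6.19%, 8.68% and 11.6%. The 2 distributions overlapped over most of their range. The libraries also differ in the classes of cell they hold, so the classes were compared within each library.

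Astrocyte-like cells, which feed neurons and clear glutamate, had the highest share of mitochondrial transcripts in the old library. Their 8 wells held 15.2% to 28.3%, with a median of 21.6%, against 1.93% to 7.43% and a median of 4.98% in the 19 precursor-like wells, and these 2 classes did not overlap. Nor did they overlap in depth: the deepest of these astrocyte-like wells had 3067 other transcripts, and the shallowest precursor-like well 4602. In the Nestin-GFP library 92 astrocyte-like wells had a median of 10.8% (2.95% to 44.8%), against 5.67% (3.28% to 16.2%) in 69 precursor-like wells, and there the classes overlapped. Mature oligodendrocyte-like cells, which make myelin, had medians of 7.65% in 5 old wells and 10.2% in 91 Nestin-GFP wells. Endothelial-like cells, which line vessels, had medians of 8.15% in 6 old wells and 11.4% in 14 Nestin-GFP wells. Neuroblast-like cells, which are immature neurons, had medians of 7.62% in 11 old wells and 6.17% in 41 Nestin-GFP wells. Blood-like cells had a median of 7.61% in 15 old wells. Microglia-like cells, the resident macrophages of the brain, had a median of 4.24% in 49 old wells, the lowest of the named classes with at least 5 wells.

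In the old library the quartiles of the astrocyte-like wells (20.8% to 23.2%) lay above those of every other class with at least 5 wells. The next 4 classes in that order were endothelial-like, mature oligodendrocyte-like, neuroblast-like and blood-like cells. Their quartiles overlapped each other, within 5.52% and 10.2%. The quartiles of precursor-like cells (4.07% to 5.39%) and microglia-like cells (2.94% to 5.37%) overlapped as well. In the Nestin-GFP library endothelial-like, astrocyte-like and mature oligodendrocyte-like cells had overlapping quartiles from 8.40% upwards. Neuroblast-like and precursor-like cells had overlapping quartiles up to 7.33%. The place of the neuroblast-like cells thus differed between the libraries, which was not tested.

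**Figure D1:**
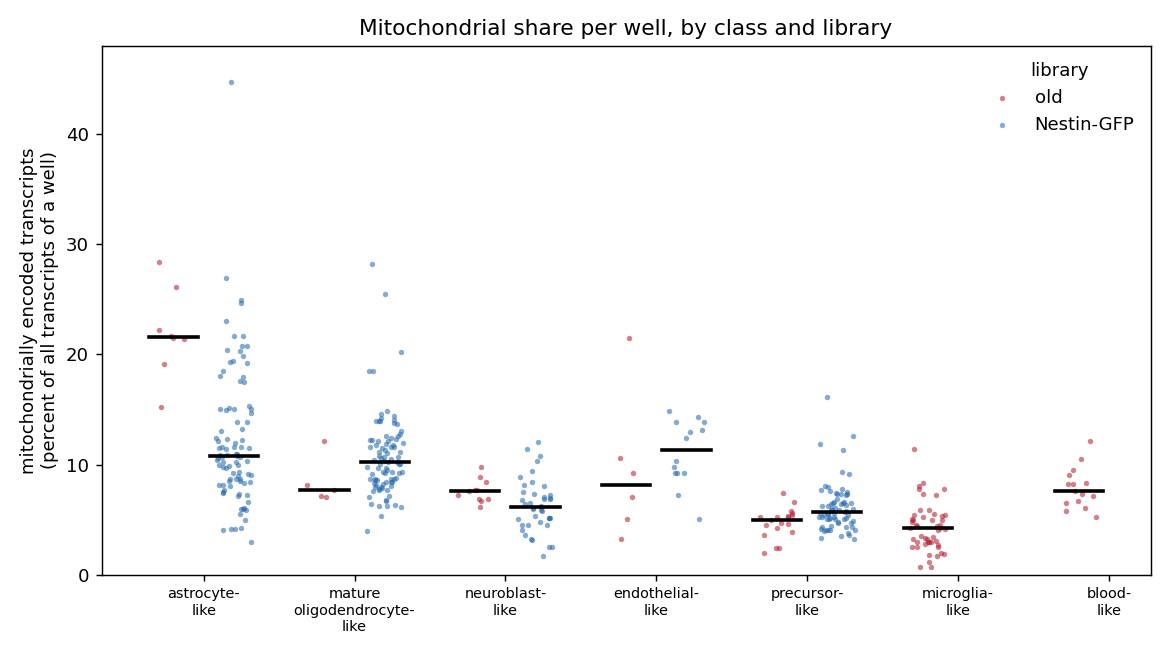
Mitochondrially encoded transcripts as a percent of all transcripts of a well (vertical axis), by class (horizontal axis), with 1 point per well and a line at the median; old wells are left of Nestin-GFP wells, and microglia-like and blood-like cells are old alone. The 8 old astrocyte-like wells lie at 15.2% or more, above all 19 old precursor-like wells, and 1 Nestin-GFP well reaches 44.8%.

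Summed over wells, the ratio of mitochondrial to other transcripts in astrocyte-like cells was above that of precursor-like cells by a log2 of 2.55 in the old library and 1.30 in the Nestin-GFP library. The mean was 1.92 ± 0.88 (SD, n = 2 libraries). For mature oligodendrocyte-like cells the mean was 0.86 ± 0.017, for endothelial-like cells 0.95 ± 0.047 and for neuroblast-like cells 0.50 ± 0.51 (SD, n = 2 libraries each). The neuroblast-like difference was thus no larger than the spread between the libraries, at 0.86 in the old library and 0.14 in the Nestin-GFP library.

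Scaled to the spike-in RNA that every well received, the same cells gave another order. Astrocyte-like wells had a median of 2.43 mitochondrial transcripts per spike-in transcript, against 2.66 in precursor-like wells of the old library. In the Nestin-GFP library the medians were 3.14 in astrocyte-like wells and 3.18 in precursor-like wells. On this scale the log2 difference was -0.13 in the old library and -0.02 in the Nestin-GFP library, so the excess given above was not seen. Quartiles overlapped in both libraries. They were 1.99 to 3.51 in astrocyte-like and 1.96 to 3.20 in precursor-like wells of the old library. In the Nestin-GFP library they were 2.09 to 4.62 and 2.27 to 4.00. What differed were the other transcripts. Astrocyte-like wells had medians of 9.37 other transcripts per spike-in transcript in the old library and 30.5 in the Nestin-GFP library. Precursor-like wells had medians of 50.4 in the old library and 47.2 in the Nestin-GFP library.

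Endothelial-like cells lay below precursor-like cells per spike-in transcript in both libraries. They had 1.02 mitochondrial transcripts per spike-in transcript in the old library, against 2.66 in precursor-like cells. Nestin-GFP cells had 1.68, against 3.18. Their other transcripts were low as well, at 15.9 per spike-in transcript in the old library and 14.5 in the Nestin-GFP library. Mature oligodendrocyte-like cells of the Nestin-GFP library had the most mitochondrial transcripts per spike-in transcript of its classes with at least 5 wells, with a median of 5.25 (quartiles 3.92 and 6.87). In the old library the 5 wells of this class had a median of 2.49. Neuroblast-like cells had the highest median of the old library in such classes, 3.89 (quartiles 3.04 and 5.38), and 2.72 in the Nestin-GFP library. Microglia-like cells were low on both scales, with 1.15 mitochondrial transcripts per spike-in transcript. How much of a cell's RNA was captured enters both numerators, so these are levels per well and not per cell volume.

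**Figure D2:**
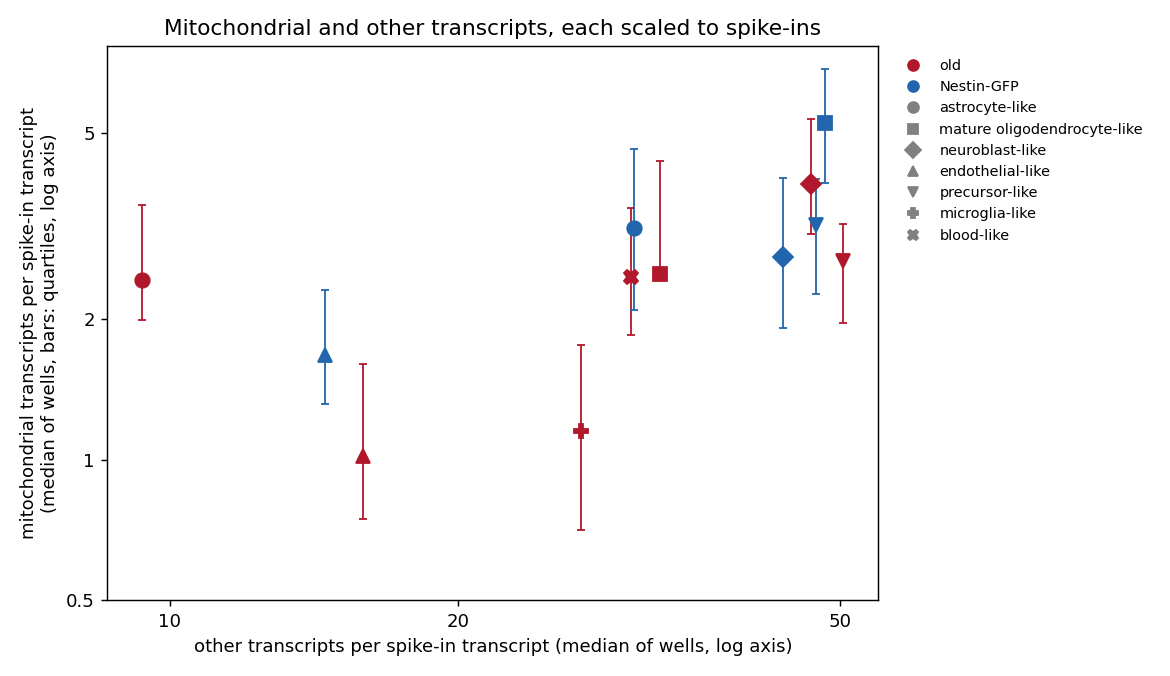
Median mitochondrial transcripts per spike-in transcript (vertical log axis, bars from the first to the third quartile of wells) against median other transcripts per spike-in transcript (horizontal log axis), 1 point per class and library. Old astrocyte-like cells stand at 9.37 other and 2.43 mitochondrial transcripts, to the left of old precursor-like cells at 50.4 and 2.66.

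The share also went with the depth of the well, to a degree that varied between classes. Over the 92 Nestin-GFP astrocyte-like wells the Spearman correlation of the share with other transcripts was -0.52, a description over wells that share 1 library, in which other transcripts also form part of the share. It was -0.15 over 91 mature oligodendrocyte-like and -0.01 over 69 precursor-like wells of that library, and -0.38 over 19 old precursor-like wells. In neuroblast-like cells it had the other sign, at 0.72 over 11 old wells and 0.29 over 41 Nestin-GFP wells. Nestin-GFP astrocyte-like wells with 1000 to 2000 other transcripts had a median share of 17.6% (16 wells), against 9.07% in the 35 wells with 5000 or more. Mature oligodendrocyte-like wells of that library had medians of 25.5% in 3 wells with 1000 to 2000 other transcripts, 11.8% in 15 wells with 2000 to 5000 and 9.73% in 73 wells with more. The 5 old astrocyte-like wells with 1000 to 2000 other transcripts had a median of 21.5%. All 8 old astrocyte-like wells fell in 1 cluster, led by Clu, Fam107a and Aldoc, which had a median of 15.1% in its 29 Nestin-GFP wells. Another cluster, led by Gjb6 and Htra1, held 62 Nestin-GFP wells and no old well, with a median of 9.73%. The part of depth in the difference between classes was not tested. Old astrocyte-like and precursor-like wells share no depth, so class and depth cannot be told apart between them.

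One Nestin-GFP well stood apart. It was an astrocyte-like well with 21531 mitochondrial transcripts, 44.8% of its transcripts and 10.3% of all mitochondrial transcripts of its library. The next highest well of that library had 2289. The well also had 100.7 mitochondrial and 124.4 other transcripts per spike-in transcript. The ribosomal RNAs were 46.6% of its mitochondrial transcripts. Without it the summed share of Nestin-GFP astrocyte-like cells was 10.6%, against 13.7% with it, and the median was 10.8% either way. The log2 difference from precursor-like cells in that library was then 0.88.

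The 15 protein-coding and ribosomal RNA genes were present in most wells, apart from mt-Nd6. The ribosomal RNA genes held 27.2% of the mitochondrial transcripts in the old library and 26.3% in the Nestin-GFP library. The protein-coding genes held 72.6% in the old library and 73.5% in the Nestin-GFP library. The transfer RNA rows held 0.219% in the old library and 0.151% in the Nestin-GFP library, and none of them reached 0.1% in either. Priming on A tails leaves most transfer RNA uncounted, so these rows say little about transfer RNA levels.

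Of single genes, mt-Rnr2, the large ribosomal RNA of the mitochondrion, held 22.5% of the mitochondrial transcripts in the old library and 20.3% in the Nestin-GFP library. Its partner mt-Rnr1, the small ribosomal RNA, held 4.64% in the old library and 6.00% in the Nestin-GFP library. Of the protein-coding genes, mt-Atp6, a membrane subunit of the ATP synthase, held 11.6% in the old library and 13.4% in the Nestin-GFP library. Between 8% and 11% lay mt-Co1 and mt-Co2, catalytic subunits of cytochrome c oxidase (complex IV), mt-Nd4 of complex I, and mt-Cytb, the cytochrome b of complex III. Divided by annotated length, the shares stood in another order. The method reads 3' ends, so a count need not rise with gene length, and shares per kilobase are not levels of the RNAs. On that scale mt-Atp6 stood highest, at 17.1% per kilobase in the old library and 19.7% in the Nestin-GFP library. On the same scale mt-Rnr2 stood at 14.2% in the old library and 12.8% in the Nestin-GFP library, and mt-Co2 at 14.2% in the old library and 13.4% in the Nestin-GFP library. The longest protein-coding gene, mt-Nd5, a proton-pumping subunit of complex I, had 1.61% per kilobase in the old library and 1.26% in the Nestin-GFP library.

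The upstream gene of each overlapping pair was far below the downstream gene. Of the mitochondrial transcripts, mt-Atp8, the small subunit whose frame overlaps mt-Atp6, held 0.71% in the old library and 0.46% in the Nestin-GFP library. For mt-Nd4l, the small complex I subunit ahead of mt-Nd4, the shares were 0.83% in the old library and 0.81% in the Nestin-GFP library. By the same measure mt-Nd4 held 9.40% in the old library and 9.56% in the Nestin-GFP library.

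The one protein-coding gene on the minus strand, mt-Nd6, a complex I subunit, was the rarest of the 15. It had 29 transcripts in the old library and 119 in the Nestin-GFP library, which is 0.0593% and 0.0567% of their mitochondrial transcripts. It was seen in 15.2% of old wells and 23.5% of Nestin-GFP wells. In human cells its message is known to carry no stable A tail. All minus-strand rows together held 0.102% in the old library and 0.0833% in the Nestin-GFP library. The labels do not state whether counting used strand, so reads of mt-Nd6 and of RNA opposite to it cannot be told apart.

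**Figure D3:**
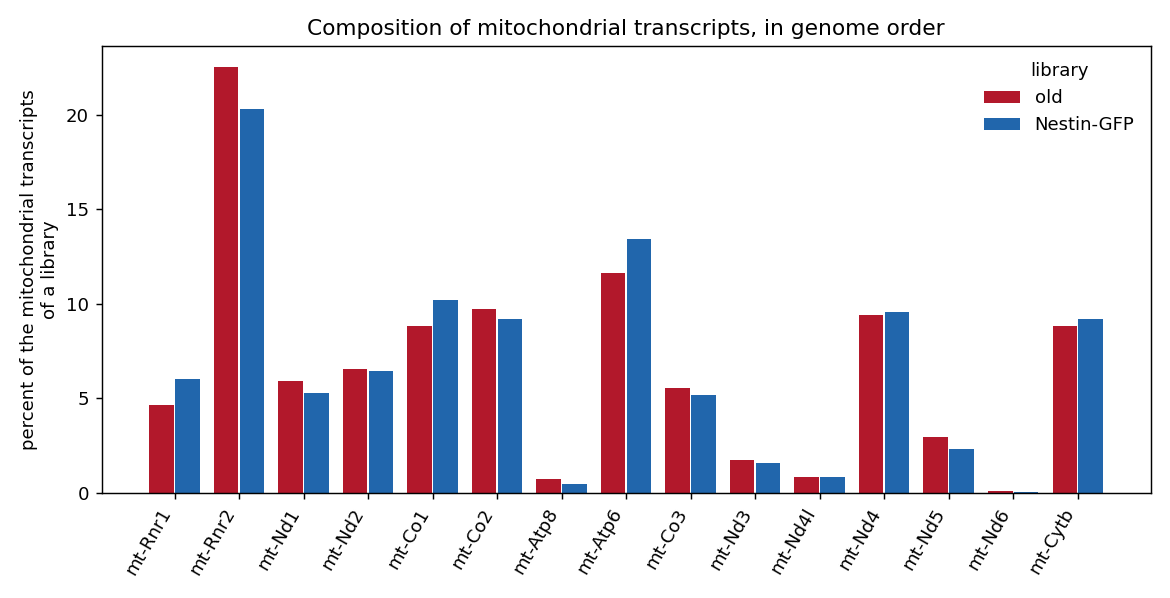
Percent of a library's mitochondrial transcripts (vertical axis) held by each of the 13 protein-coding and 2 ribosomal RNA genes, in genome order (horizontal axis), old bars left of Nestin-GFP bars, 1 library each and so without error bars. The mt-Rnr2 bars are highest at 22.5% and 20.3%, and those of mt-Nd6 lie at 0.0593% and 0.0567%.

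Each gene was then tested between classes. Counts were summed per library and class and fitted with edgeR over all rows, with library as a block and with scaling from the rows outside chrM. Such p-values rest on the spread between these 2 libraries, which may be technical. The fit shared that spread over the 5 classes, with 4 residual degrees of freedom. For the median row it was set wholly by a trend over all rows. So a p-value does not measure how far a single gene or contrast varied between the libraries. Of the 15 genes, 14 passed the filter on low counts, and mt-Nd6 did not. No transfer RNA row passed. In astrocyte-like against precursor-like cells all 14 were higher at an adjusted p under 0.05, where 8.46% of the 2791 rows tested were called higher. Higher here means relative to other transcripts: per spike-in transcript the mitochondrial medians of the 2 classes were close, as given above. The median log2 difference of the 14 genes was 1.74, and that of all rows was -0.15. By DESeq2 5 rows of chrM were called higher, at the 0.05 level, where 127 of all 5402 rows were. With wells of at least 2000 other transcripts alone, which leaves 3 old astrocyte-like wells, edgeR called 6. In that setting 148 of all 2697 rows were called higher.

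Levels from here on are per 1000000 other transcripts of a class and use all its transcripts, except those of nuclear genes given per UMI below. Those of Nestin-GFP astrocyte-like cells include the well that stood apart. Those UMI values and the fitted differences use the random set of UMIs that took no part in clustering. Of the 6 complex I genes tested, mt-Nd5 had the largest fitted difference. Complex I takes electrons from NADH and passes them to ubiquinone. In astrocyte-like cells mt-Nd5 stood at 10887 in the old library and 4281 in the Nestin-GFP library, against 975 and 1433 in precursor-like cells. The fitted difference was also the largest of the 14 genes (log2 2.45 ± 0.47 SE, edgeR adjusted p = 4.66e-06). For mt-Nd2, a membrane-arm subunit, the levels in astrocyte-like cells were 19428 in the old library and 10955 in the Nestin-GFP library, against 2979 and 4595 in precursor-like cells (log2 1.89 ± 0.43, edgeR adjusted p = 0.000215). For mt-Nd4, a proton-pumping subunit, they were 26225 in the old library and 15461 in the Nestin-GFP library, against 4255 and 6326 (log2 1.79 ± 0.42, edgeR adjusted p = 0.000304). Astrocyte-like levels were above precursor-like levels in both libraries for each of the 3.

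Smaller fitted differences were found for mt-Nd1, which lies where ubiquinone is reduced, and mt-Nd3. In astrocyte-like cells mt-Nd1 had 13725 in the old library and 7052 in the Nestin-GFP library, against 2580 and 3511 in precursor-like cells (log2 1.48 ± 0.44, edgeR adjusted p = 0.00630). The gene mt-Nd3 had 3894 in the old library and 1928 in the Nestin-GFP library, against 566 and 1106 (log2 1.36 ± 0.47, edgeR adjusted p = 0.0246). Without the 1 well that stood apart, mt-Nd3 missed the threshold, with an edgeR adjusted p of 0.0743. For mt-Nd4l the levels were 2009 in the old library and 1386 in the Nestin-GFP library, against 455 and 540 (log2 1.77 ± 0.47, edgeR adjusted p = 0.00180). The complex I gene that was not tested, mt-Nd6, had 95.2 in Nestin-GFP astrocyte-like cells, against 20.9 in precursor-like cells. No mt-Nd6 transcript was counted among the 4425 mitochondrial transcripts of old astrocyte-like cells. Taken as 3 counts of that total, this allows a share of up to 0.0678%, and the exact 95% upper limit was 0.0833%. The share in old precursor-like cells was 0.0735%, so a difference was not detectable at this depth.

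Among complex IV genes mt-Co1, which carries the site where oxygen is reduced, had the largest difference. Its level in astrocyte-like cells was 32994 in the old library and 15462 in the Nestin-GFP library, against 4108 and 5772 in precursor-like cells (log2 2.08 ± 0.42, edgeR adjusted p = 2.13e-05). For mt-Co2, which takes electrons from cytochrome c, it was 25705 in the old library and 12538 in the Nestin-GFP library, against 3965 and 5386 (log2 1.80 ± 0.42, edgeR adjusted p = 0.000285). For mt-Co3, a structural core subunit, it was 15624 in the old library and 7528 in the Nestin-GFP library, against 2620 and 3412 (log2 1.69 ± 0.44, edgeR adjusted p = 0.00131). For mt-Cytb of complex III it was 23614 in the old library and 12906 in the Nestin-GFP library, against 4372 and 6413 (log2 1.59 ± 0.42, edgeR adjusted p = 0.00167). These 4 genes were higher in astrocyte-like cells of both libraries.

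Of the ATP synthase genes, mt-Atp6 had 28142 in old and 16840 in Nestin-GFP astrocyte-like cells, against 5198 and 8571 in precursor-like cells (log2 1.52 ± 0.41, edgeR adjusted p = 0.00209). Its overlapping neighbour mt-Atp8 had 1945 in old and 610 in Nestin-GFP astrocyte-like cells, against 332 and 270 (log2 1.99 ± 0.48, edgeR adjusted p = 0.000459). The ribosomal RNA mt-Rnr2 had 64826 in old and 39274 in Nestin-GFP astrocyte-like cells, against 11850 and 13045 (log2 1.72 ± 0.39, edgeR adjusted p = 0.000171). For mt-Rnr1 the levels were 8304 in old and 12016 in Nestin-GFP astrocyte-like cells, against 3215 and 4131 (log2 1.21 ± 0.44, edgeR adjusted p = 0.0393). Without the well that stood apart mt-Rnr1 missed the threshold as well, with an edgeR adjusted p of 0.234.

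In mature oligodendrocyte-like cells 5 of the 14 genes were called higher, where 12.0% of all rows tested were. Their median log2 difference was 0.92, and that of all rows was -0.14. This contrast was added after the data had been seen. Per spike-in transcript the median mitochondrial level was slightly below that of precursor-like cells in the old library (log2 -0.09), with overlapping quartiles. It was above it in the Nestin-GFP library (log2 0.73). The 5 were both ATP synthase genes, mt-Co1, mt-Co2 and mt-Nd3. The level of mt-Atp6 was 12602 in old and 18485 in Nestin-GFP mature oligodendrocyte-like cells, against 5198 and 8571 in precursor-like cells (log2 1.23 ± 0.40, edgeR adjusted p = 0.0108). That of mt-Atp8 was 693 in old and 670 in Nestin-GFP cells, against 332 and 270 (log2 1.48 ± 0.46, edgeR adjusted p = 0.00769). For mt-Co2 the fitted log2 difference was 1.18 ± 0.41 (edgeR adjusted p = 0.0184), for mt-Nd3 1.29 ± 0.46 (edgeR adjusted p = 0.0215) and for mt-Co1 1.06 ± 0.41 (edgeR adjusted p = 0.0385). The ribosomal RNAs had the smallest values of the 14, with log2 differences of 0.48 ± 0.38 for mt-Rnr2 and 0.37 ± 0.43 for mt-Rnr1, and did not pass. DESeq2 called none of the chrM rows, with 6 at an unadjusted p under 0.05, where it called 270 of all 6855 rows higher. Without the library block edgeR called 1, where it called 346 of all 2791 rows higher.

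No chrM row was called in neuroblast-like or endothelial-like cells against precursor-like cells. In neuroblast-like cells 8.28% of all rows were called higher. Of the 14 genes edgeR placed 1 at an unadjusted p under 0.05, and DESeq2 called none and placed 1 there. Their median log2 difference was 0.41, and that of all rows was -0.22. The largest was mt-Atp8, with 888 in old and 293 in Nestin-GFP neuroblast-like cells, against 332 and 270 in precursor-like cells (log2 1.08 ± 0.47, edgeR adjusted p = 0.0802). In endothelial-like cells 6.13% of all rows were called higher. There neither edgeR nor DESeq2 placed any of the 14 genes at an unadjusted p under 0.05. The median of the 14 was 0.33 and that of all rows -0.96. The median of all rows in this contrast moved to -0.67 when library sizes and scaling came from all rows, so a level here depends on the scaling.

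**Figure D4:**
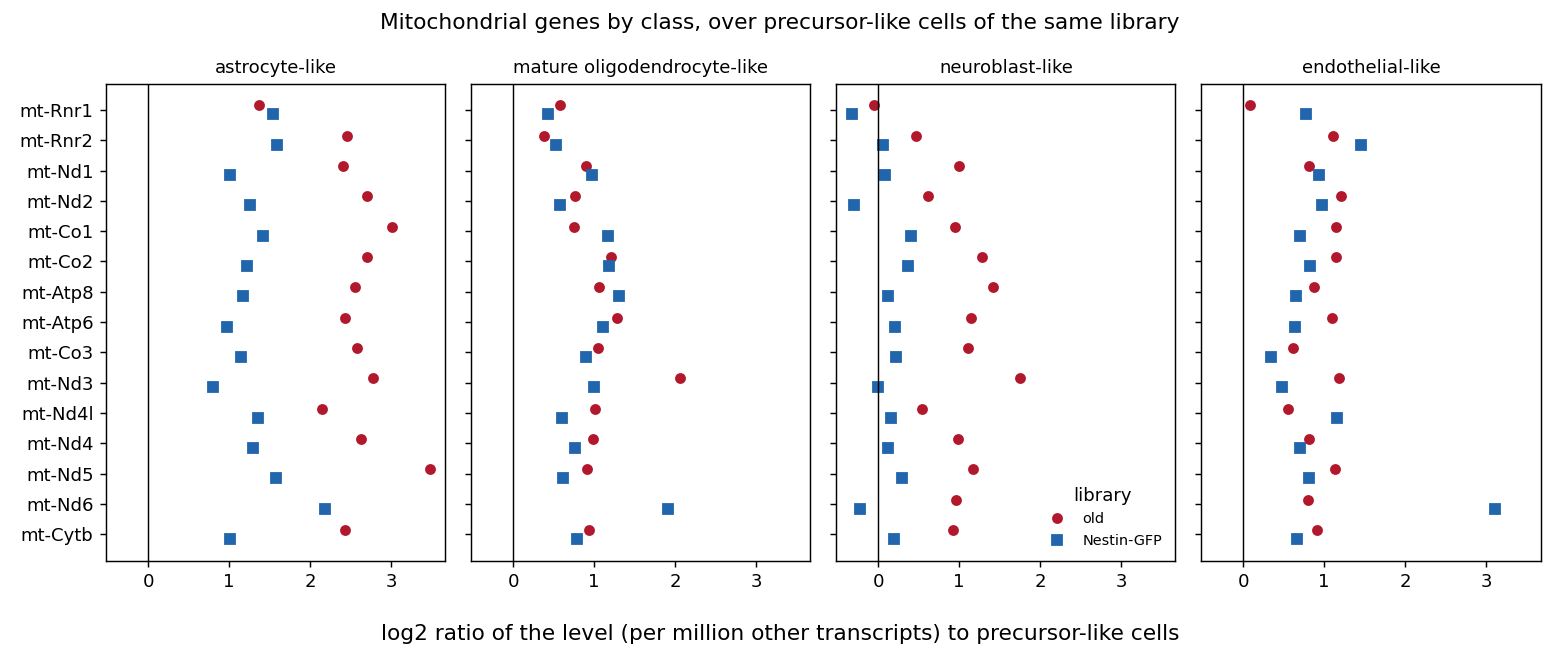
Log2 ratio of each gene's level per 1000000 other transcripts (horizontal axis) in 4 classes over precursor-like cells of the same library, with genes in genome order (vertical axis), circles for old and squares for Nestin-GFP. In astrocyte-like cells the ratios lie between 1.37 and 3.48 in the old library, where mt-Nd6 was at 0 and is not drawn, and between 0.80 and 2.19 in the Nestin-GFP library. The Nestin-GFP ratios include the well that stood apart, and the highest is that of mt-Nd6, the rarest gene.

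Read gene by gene within each library, the ratios of astrocyte-like to precursor-like levels were above 1 for 14 of 14 genes in the old library (median log2 2.56) and for 15 of 15 in the Nestin-GFP library (median log2 1.25). Without the well that stood apart all Nestin-GFP ratios stayed above 1, but most were lower, with the lowest at log2 0.50 for mt-Nd3. That of mt-Rnr2 was then 0.92, against 1.59 with the well, and that of mt-Rnr1 0.71, against 1.54. The old ratio of mt-Rnr1 (log2 1.37) was the lowest of its library, and that of mt-Nd5 (log2 3.48) was the highest. In neuroblast-like cells 14 of 15 genes lay above precursor-like levels in the old library, with mt-Rnr1 below. Of 15 genes in the Nestin-GFP library 12 lay above, with a median log2 ratio of 0.12. In microglia-like cells of the old library 6 of 15 lay above and 9 below, with a median log2 ratio of -0.04.

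Classes also differed in how their mitochondrial transcripts were divided among genes. The ATP synthase genes held 15.3% in old and 16.5% in Nestin-GFP mature oligodendrocyte-like cells, against 11.6% and 13.7% in precursor-like cells. In astrocyte-like cells they held 10.8% in the old library and 11.002% in the Nestin-GFP library. The ribosomal RNAs held 23.3% in old and 20.95% in Nestin-GFP mature oligodendrocyte-like cells, against 31.7% and 26.6% in precursor-like cells. In neuroblast-like cells they held 22.5% in the old library and 23.8% in the Nestin-GFP library. So in both libraries mature oligodendrocyte-like cells had more of the first and less of the second than precursor-like cells. The same held for neuroblast-like cells, where ATP synthase genes held 14.3% in the old library and 14.4% in the Nestin-GFP library. For astrocyte-like cells the ribosomal RNA share was 26.3% in the old library and 32.3% in the Nestin-GFP library, and 26.4% there without the well that stood apart. In microglia-like cells complex I genes held 32.02%, against 24.9% in old precursor-like cells. These divisions were not tested.

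Of the 14 genes tested, the shares of mt-Nd5 and mt-Rnr1 differed most, as ratios, between old astrocyte-like and precursor-like cells. Among mitochondrial transcripts mt-Nd5 held 3.92% in old and 2.70% in Nestin-GFP astrocyte-like cells, against 2.05% and 2.22% in precursor-like cells. Its share was higher in astrocyte-like cells of both libraries. The share of mt-Rnr1 was 2.99% in old astrocyte-like cells, against 6.76% in old precursor-like cells. For Nestin-GFP it was 7.58%, against 6.40%, and 5.70% without the well that stood apart. The direction for mt-Rnr1 thus held in the Nestin-GFP library only without that well.

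Set side by side within a class, the libraries did not differ in 1 direction. Astrocyte-like cells had a share of 21.7% in the old library and 13.7% in the Nestin-GFP library (log2 of the ratio to other transcripts 0.81). Neuroblast-like cells had 7.96% in the old library and 6.62% in the Nestin-GFP library (log2 0.29). Mature oligodendrocyte-like cells had 7.99% in the old library and 10.4% in the Nestin-GFP library (log2 -0.42). Endothelial-like cells had 8.59% in the old library and 10.9% in the Nestin-GFP library (log2 -0.37), and precursor-like cells 4.54% and 6.07% (log2 -0.44). Age, the reporter sort and the library cannot be told apart here. Of 92 Nestin-GFP astrocyte-like wells, 21 reached the lowest old well of that class and 1 exceeded the highest. Per spike-in transcript, as medians of wells, the astrocyte-like difference had the other sign, at a log2 of -0.37. That of neuroblast-like cells was 0.52, and in both classes the quartiles of the libraries overlapped.

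Nuclear genes for the same complexes gave other counts. Of 76 listed subunits 60 were tested. In astrocyte-like cells edgeR called 1 higher and none lower, where 8.46% of all rows were called higher and 7.67% lower. By edgeR 6 of the 60 were at an unadjusted p under 0.05, and DESeq2 called none of the 60. Their median log2 difference was 0.47, and that of all rows was -0.15. Summed, the listed subunits had 21960 transcripts per 1000000 other transcripts in old and 15066 in Nestin-GFP astrocyte-like cells. Precursor-like cells had 11032 in the old library and 13257 in the Nestin-GFP library. The called gene was Cox4i1, a regulatory subunit of complex IV. It had 1130 and 409 per 1000000 other UMIs in astrocyte-like cells of the old and the Nestin-GFP library, against 175 and 185 in precursor-like cells (log2 1.66 ± 0.55, edgeR adjusted p = 0.0204). In mature oligodendrocyte-like and neuroblast-like cells edgeR called none of the 60, with 0 and 2 at an unadjusted p under 0.05, and DESeq2 called none. Of all 2791 rows, edgeR called 744 and 681 in these 2 contrasts. In endothelial-like cells 3 of the 60 were called lower and none higher, where 12.0% of all rows were called lower. The list's median log2 difference was -0.91, close to that of all rows. The 3 genes were Cox6b1 of complex IV and Uqcrc2 of complex III, both at 0 in the tested UMIs of endothelial-like cells of either library, and Atp5a1, the alpha subunit of the ATP synthase (log2 -2.31 ± 0.86, edgeR adjusted p = 0.0415).

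Mitochondrial transcripts outnumbered those of the listed nuclear subunits in each class. The ratio was 12.6 in old and 10.5 in Nestin-GFP astrocyte-like cells, against 4.31 and 4.87 in precursor-like cells. It was 12.2 in old and 10.3 in Nestin-GFP endothelial-like cells. For mature oligodendrocyte-like cells it was 7.62 in the old library and 8.60 in the Nestin-GFP library, and for neuroblast-like cells 5.69 in the old library and 5.40 in the Nestin-GFP library. This ratio divides by those subunits rather than by all other transcripts. It kept astrocyte-like and endothelial-like cells above precursor-like cells in both libraries.

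Genes that express and maintain mitochondrial DNA were mostly below the filter. Of 33 listed, 2 were tested and edgeR called none in any contrast, with 1 at an unadjusted p under 0.05 in neuroblast-like cells. DESeq2, which set its own filter, called 1 in mature oligodendrocyte-like and 1 in neuroblast-like cells. None of the 9 listed regulators of mitochondrial biogenesis was tested. None of 7 listed nuclear copies of mitochondrial DNA has a row in these libraries, so reads from such copies cannot be told apart from chrM reads.

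Values that can move with cell handling stood as follows. The list of immediate early and heat-shock genes had 4206 transcripts per 1000000 other transcripts in old and 822 in Nestin-GFP astrocyte-like cells, against 4841 and 3478 in precursor-like cells. Of its 14 genes 13 were tested, and in astrocyte-like cells 5 were called lower and none higher by edgeR, where 7.67% of all rows were called lower. In neuroblast-like cells 4 were called higher and none lower, where 231 of all 2791 rows were called higher and 450 lower. In mature oligodendrocyte-like cells 2 were called higher and none lower, where 334 of all 2791 rows were called higher and 410 lower. In endothelial-like cells 4 were called higher and 1 lower, where 6.13% of all rows were called higher and 12.0% lower. The largest rise was that of Hspa1b, a heat-shock gene, with 2789 and 2377 per 1000000 other UMIs in the old and the Nestin-GFP library, against 93.3 and 20.97 in precursor-like cells (log2 5.23 ± 0.64, edgeR adjusted p = 4.82e-14). Microglia-like cells, low in mitochondrial share, had 42306 transcripts per 1000000 other transcripts on this list. The list of RNAs kept in the nucleus had 4708 in old and 52145 in Nestin-GFP astrocyte-like cells, against 35612 and 36329 in precursor-like cells. The part of these in the mitochondrial share was not tested.

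In most classes examined the genes went up and down together from well to well. Over 92 Nestin-GFP astrocyte-like wells the 91 pairs among 14 genes had a median Spearman correlation of 0.56 in level per other transcript, from 0.32 to 0.90. Over 69 precursor-like wells of that library the median was 0.43, and over 49 old microglia-like wells it was 0.54. All 91 pairs were above 0 in each of these classes, and in mature oligodendrocyte-like and neuroblast-like cells of the Nestin-GFP library. In smaller classes of the old library 81 of 91 pairs were above 0 over 19 precursor-like wells (lowest -0.17), and 63 of 91 over 15 blood-like wells (lowest -0.65). These are descriptions: the wells share a library, and levels of all genes share the divisor.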

How the data were processed

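The submitters' processing notes name BWA 0.6.2-r126 and the mm10 build. What the authors deposited for each well are estimated counts, already corrected for UMI saturation. Inverting the correction with a pool of 4096 UMIs gave whole numbers within 0.05 for nearly all values of both libraries. Depth was 1000 other transcripts or more per well. Well numbers are shared between plates and do not mark shared cells. UMIs were divided at random into 2 sets. The first was clustered without chrM rows with scanpy 1.11.5 (2000 variable genes, 30 components, 15 neighbours, Leiden resolution 1) over all 33 libraries. Naming a cluster took a marker score of 0.5 and 3 markers, each detected in 10% of its cells or more. Its 10 top genes also had to hold at least as many markers of that class as of any other. The chrM rows took no part in this. The second set was summed per library and class and rounded for edgeR 4.0.16 (TMM, filterByExpr, quasi-likelihood F test, Benjamini-Hochberg over all rows), with DESeq2 1.42.0 as an alternative. On simulated counts for astrocyte-like against precursor-like cells, the fit recovered 50.5% of 198 rows changed 4-fold and called no unchanged row. The simulated counts had an assumed spread and a profile shared by all classes and libraries, apart from the changed rows, which were drawn from well-counted rows. There 1980 rows were tested, so neither the recovery nor the lack of false calls need hold for the data. A row that was not called may still differ. No doublet caller was run. Members, markers and lists were chosen with earlier results of these data known. The 15 protein-coding and ribosomal RNA genes are named whatever their values, transfer RNA rows from 1% of a library's mitochondrial transcripts, and of nuclear lists up to 4 called genes a contrast with the largest change. A further deposited table of cells and a barcode list were not used.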

Additional observations from a re-analysis of the deposited data

Results flagged for a closer look

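The old library was compared with the Nestin-GFP library within each class, and the classes went opposite ways. The log2 of the ratio of mitochondrial to other transcripts, old over Nestin-GFP, was 0.81 in astrocyte-like and 0.29 in neuroblast-like cells. It was -0.37 in endothelial-like, -0.42 in mature oligodendrocyte-like and -0.44 in precursor-like cells. Each value rests on 1 library a group, and the difference between classes was not tested. Without the Nestin-GFP well that stood apart, the astrocyte-like value was 1.22.

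For neuroblast-like over precursor-like cells, 2 genes lay on opposite sides in the libraries, which was not tested. For mt-Nd2 the log2 ratio was 0.62 in the old library and -0.30 in the Nestin-GFP library. For mt-Nd6 it was 0.96 in the old library and -0.23 in the Nestin-GFP library, on 6 old and 5 Nestin-GFP transcripts in neuroblast-like cells.

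Wells below 1000 other transcripts entered no comparison. Their median mitochondrial share was 8.63% in 246 old wells and 12.8% in 69 Nestin-GFP wells. In 26 of the old wells and 1 of the Nestin-GFP wells no mitochondrial transcript was counted.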

How the results depend on the processing

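The share of the old library was 6.50% with wells of at least 500 other transcripts, 6.00% with at least 2000, 4.92% without mt-Rnr2, 4.62% with protein-coding rows alone and 5.42% as a median of wells. That of the Nestin-GFP library was 9.33% in raw UMIs, 9.51% with at least 2000 other transcripts, 7.85% without mt-Rnr2, 7.28% with protein-coding rows alone, 8.68% as a median of wells and 8.86% without its well with the most mitochondrial transcripts. The log2 of old over Nestin-GFP, -0.68 as reported, was -0.54 without that well and -0.95 per spike-in transcript. Per spike-in transcript, as medians of wells, the mean log2 difference from precursor-like cells was -0.076 in astrocyte-like and -1.16 in endothelial-like cells. For mature oligodendrocyte-like cells it was 0.32. In neuroblast-like cells it was 0.16, with 0.55 in the old and -0.22 in the Nestin-GFP library. Other divisors shift these values by construction. With clusters of the 2 libraries alone the endothelial-like value was 1.43, with 0.37 in the old and 2.49 in the Nestin-GFP library. In that setting no mature oligodendrocyte-like value could be had in both libraries. As a median of cells the mature oligodendrocyte-like value was 0.79. With 1 library left out, the values ran from 1.30 to 2.55 for astrocyte-like, 0.84 to 0.87 for mature oligodendrocyte-like, 0.14 to 0.86 for neuroblast-like and 0.92 to 0.98 for endothelial-like cells. The remaining clusterings, and leaving out wells with markers of a second class, moved no class value past its SD.

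Of rows called higher in astrocyte-like cells, 14 as reported, DESeq2 gave 5 and wells of at least 2000 other transcripts 6; the other settings gave 10 to 15. In mature oligodendrocyte-like cells, 5 as reported, DESeq2 gave 0 and the fit without the library block 1. In neuroblast-like cells 1 row (mt-Atp8) was called with at least 2000 other transcripts, and in endothelial-like cells 1 (mt-Rnr2) with all counts of the cells. The cause of these changes was not tested. No paired analysis by replicate number was possible because old and Nestin-GFP are 1 library each, so the groups share fewer than 2 replicate numbers. Genes that were not called changed sign as follows. In neuroblast-like cells mt-Nd2 was at 0.047 with scaling from all rows, 0.13 with DESeq2 size factors, 0.10 by DESeq2, 0.060 without a filter, 0.17 with all counts, 0.34 with at least 2000 other transcripts and 0.62 in the old library alone. In endothelial-like cells mt-Rnr1 was at 0.24 with all counts, 0.087 in the old and 0.78 in the Nestin-GFP library alone. There mt-Co3 was at 0.20 with scaling from all rows, 0.18 with DESeq2 size factors, 0.25 with all counts, 0.62 in the old and 0.34 in the Nestin-GFP library alone, and mt-Nd4l at -0.10 with at least 2000 other transcripts. By DESeq2 mt-Atp6 was at -0.26, mt-Co1 at -0.21, mt-Co2 at -0.16, mt-Cytb at -0.28, mt-Nd1 at -0.39, mt-Nd3 at -0.32, mt-Nd4 at -0.33 and mt-Nd5 at -0.16. In raw UMIs the ribosomal RNA share of the Nestin-GFP library was 24.7%.

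Limits: 2 libraries are the only replicates of a class, old astrocyte-like cells number 8 wells, and age, sort and library go together.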
